A study of Mus musculus with 6 samples.

Results

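Transcripts of the PAF1 complex and of 4 other genes of RNA polymerase II transcription were examined. The lung endothelial cells (ECs) came from AngII-infused WT and leene-KO mice. The 10 genes were chosen by name from the 47729 genes counted: the 6 subunits of the complex (Leo1, Paf1, Ctr9, Cdc73, Rtf1 and Wdr61), together with Supt5, Supt6, Polr2a and Med1. No measured value entered the rule, but the genes were chosen with earlier results of these data known. All 10 were among the 14625 genes with enough counts to be tested. Poly(A) RNA was sequenced in 3 WT and 3 KO libraries from the lungs of male C57BL6 mice, 14 weeks old and fed normal chow. Every mouse had received angiotensin II (AngII), a peptide that constricts vessels and raises blood pressure, at 1000 ng/kg/min from an osmotic pump for 2 weeks, so the libraries hold no untreated control. The KO mice lacked the region that corresponds to the human LEENE/LINC00520 locus, a source of a long noncoding RNA, after deletion with CRISPR-Cas9. The study describes this deletion as global, so it was not limited to ECs. The labels describe CD31-enriched cells pooled from 3 mice in each group, whereas the study's methods describe magnetic sorting on CD144. Neither says that the libraries of a group came from separate mice, so the p-values measure the spread between libraries, which may be technical.

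The PAF1 complex travels with RNA polymerase II along transcribed genes and helps it through chromatin. It also serves as a platform for the histone marks laid down during elongation, such as ubiquitination of histone H2B. LEO1 is the subunit that the study tested for binding to the human LEENE transcript. The study states that silencing LEO1 in ECs abolished LEENE's induction of endothelial nitric oxide synthase. It also reports that AngII lowered LEENE and its interaction with LEO1 in ECs. The question here was whether transcripts of the complex were at another level in ECs without leene. Transcript levels do not measure the protein subunits or their assembly.

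Total counts ran from 24464324 to 35184063 per library, and mitochondrially encoded genes took 37.4 to 54.5% of them. Lung endothelial markers were present in every library, with a summed level of 2762 to 4801 CPM (read counts relative to library size, scaled between libraries by the TMM method) in WT and 3051 to 4849 in KO over 15 genes. Markers of other cell types were present too, and none of them was at 0 in any library. The 8 alveolar type II markers summed to 5579 to 52499 CPM in WT and 40875 to 50306 in KO, and WT replicate 2 was the library at 52499. The 4 airway markers summed to 15362 to 40423 CPM in WT and 33576 to 56788 in KO, and the 7 fibroblast and mural markers to 307 to 583 and 421 to 591. The 7 B cell markers summed to 10.7 to 22.9 CPM in WT and 77.2 to 82.5 in KO, and the 6 T cell markers to 2.62 to 4.45 and 6.69 to 9.20, with no overlap between the genotypes in either sum. Of the B cell markers, 7 of 7 had every KO library above every WT library and 3 had an adjusted p under 0.05 with edgeR and 6 with DESeq2. Of the T cell markers, 4 of 6 did not overlap and 0 passed with either tool. Over all tested genes, 17.8% did not overlap in either direction, and 0.109% passed with edgeR. For the 6 macrophage markers the sums were 44.7 to 105 and 74.2 to 142 CPM, and for the 5 neutrophil markers 27.0 to 70.0 and 35.9 to 39.6. In bulk libraries of this kind, fewer cells of a type and less RNA per cell cannot be told apart. The leene transcripts themselves were not analysed here, so the genotype labels were not checked against the deleted region.

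None of the 10 genes differed between KO and WT at an adjusted p under 0.05 (edgeR quasi-likelihood fit, Benjamini-Hochberg over all genes tested), a threshold that 0.109% of the tested genes passed (16 genes, 5 higher and 11 lower in KO). DESeq2, the tool named in the study's methods, called 0 of the 10, against 1.21% of the genes to which it gave an adjusted p. At an unadjusted p under 0.05, 1 of the 10 passed, Leo1, where 10.3% of all tested genes did. The WT and KO libraries did not overlap in 2 of the 10, Leo1 and Wdr61, both lower in KO. Beside the 17.8% of all tested genes with no overlap, 9.20% had every KO library below every WT library. 7 of the 10 had a log2 fold change (KO minus WT) below 0, as did 45.9% of the tested genes. The median log2 fold change was -0.15 over the 10 genes, -0.13 without Leo1, and 0.03 over all genes tested. With alveolar type II content as a covariate, 5 of the 10 were below 0, and the median was 0.029 over the 10 genes and -0.0027 over the 6 subunits (-0.17 without the covariate). The covariate was the mean log2 CPM of 5 of the 8 alveolar type II markers (Sftpc, Sftpb, Sftpa1, Sftpd and Lamp3). Of the WT libraries, only replicate 2 was as high as KO in the marker sums, with replicates 1 and 3 at 5579 and 16147 CPM. The covariate therefore partly coincides with genotype. The median of the 10 was -0.058 without WT replicate 1 and -0.27 without WT replicate 2.

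Leo1 (ENSMUSG00000042487; GRCm38 chromosome 9, 75441524 to 75466432, plus strand, 12 exon blocks) encodes the subunit that pairs with PAF1 within the complex, and it was the member with the largest difference. Its level was 15.8, 14.2 and 18.5 CPM in WT replicates 1 to 3 and 9.71, 12.2 and 10.3 CPM in KO replicates 1 to 3. Every KO library therefore lay below every WT library, with the highest KO library, replicate 2, closest to the lowest WT library, also numbered 2. The 3 WT libraries averaged 16.1 ± 2.19 CPM and the 3 KO libraries 10.8 ± 1.30 CPM (mean ± SD). The fitted log2 fold change was -0.58 (SE 0.16, 95% confidence interval -0.96 to -0.21), which placed KO at 66.7% of WT, with an interval of 51.4 to 86.6%. The unadjusted p was 0.00736 and the adjusted p 0.327 (edgeR quasi-likelihood), so the difference did not pass once adjusted over 14625 genes. At its fitted error, Leo1 would have needed a log2 fold change of about 1.30 in size to reach the largest unadjusted p among the called genes, 5.35e-05.

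**Figure D1:**
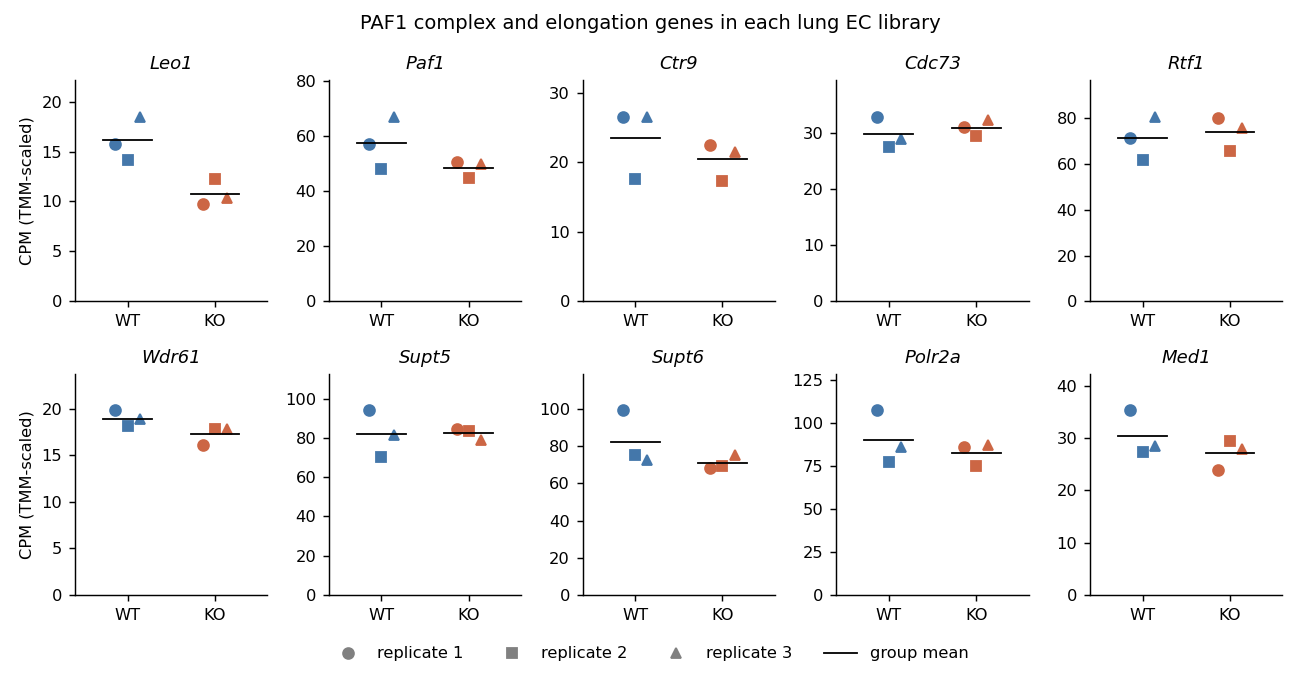
Level of each of the 10 genes in each library, in TMM-scaled CPM on axes that start at 0, with WT in blue, KO in red, a symbol for each replicate number and a line at the group mean. Leo1 is the panel with the widest gap, 14.2 to 18.5 CPM in WT against 9.71 to 12.2 CPM in KO.

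Counting error of Leo1 was smaller than the spread between libraries. Its counts were 645, 482 and 395 in WT and 226, 332 and 300 in KO, so counting error at the lowest library was 6.65% of the value, below the spread of 13.6% (WT) and 12.1% (KO) between libraries of a group. Reads were counted by strand, and a gene on the opposite strand (ENSMUSG00000097298) that covers 112 bases of the first Leo1 exon had 0 counts in every library.

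Left out in turn, the 6 libraries moved the Leo1 log2 fold change between -0.71 and -0.50. The adjusted p (edgeR quasi-likelihood) ran from 0.0526 (without WT replicate 2) to 0.734 (without KO replicate 1). The Leo1 log2 fold change was -0.71 in the first of these fits and -0.54 in the second. Over all genes, 791 were called in the first and 0 in the second, and the adjusted p of Leo1 depends on the p-values of all genes. WT replicate 2 is the WT library in which the alveolar type II markers were as high as in KO. With alveolar type II content as a covariate the log2 fold change was -0.52 (adjusted p = 0.377, edgeR quasi-likelihood). The part of the B and T cell markers in the Leo1 difference was not tested.

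The bases before the transcription start of Leo1 are shown because it is the member whose libraries separated most. The sequence is from RefSeq on GRCm38.p6, chr9:75441274-75441523, plus strand, written 5′ to 3′, and the capitals mark the GC boxes (GGGCGG, searched on both strands), the motif to which SP1 and related factors bind.
Leo1: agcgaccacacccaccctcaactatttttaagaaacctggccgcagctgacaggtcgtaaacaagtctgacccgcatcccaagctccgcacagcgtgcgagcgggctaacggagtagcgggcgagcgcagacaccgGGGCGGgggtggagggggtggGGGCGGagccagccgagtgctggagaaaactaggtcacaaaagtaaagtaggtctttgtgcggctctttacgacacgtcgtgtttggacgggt
The 2 boxes begin at -114 and -93, counted from the start. Windows of 250 bases before to 50 bases after the start were found for 8 of the 10 genes (Ctr9 and Wdr61 had no entry). The GC box was in 7 of the 8, all but Supt6, and in 35.7% of 32851 RefSeq windows. Of the other motifs searched on both strands, CCAAT was in Paf1 and Med1 (37.4% of all windows), TATAAA in Polr2a (13.6%), CCGGAAG in Rtf1 (8.86%) and CACGTG in none of the 8 (7.15%). The Leo1 window was 61.3% G and C, where the median over all windows was 52.7%. A match of letters describes the window and says nothing of binding in these cells.

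A ratio within a library does not depend on how libraries are scaled to each other, so Leo1 was also set against the other subunits. The log2 of its level per kilobase of counted exon, less the mean of the other 5 subunits, was 0.31, 0.44 and 0.51 in WT and -0.27, 0.22 and -0.19 in KO. All KO libraries lay below all WT libraries again, with KO replicate 2 nearest to WT, and the mean difference was -0.49. Expressed as a share of the summed levels per kilobase of all 6 subunits, Leo1 made up 15.5, 16.4 and 16.3% in WT and 10.6, 14.6 and 11.4% in KO. Each library's ratio and share depend on the exon length taken for each gene, and principal transcripts were not used for them. The mean difference of the log2 ratio does not depend on length, and it was -0.49 without length correction too. Leaving out each library in turn kept this difference between -0.64 and -0.40. These ratios are a description and were not tested, and the share of all genes that separate on such a ratio was not computed.

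The same ratio was taken for each of the other subunits. Rtf1 and Cdc73 lay higher against the rest of the complex in every KO library than in any WT library. The differences were 0.27 and 0.28 on the log2 scale. Since Leo1 is among the 5 genes each of them was set against, part of these differences is that of Leo1. On CPM, Rtf1 and Cdc73 overlapped between the genotypes, with log2 fold changes of 0.05 and 0.06. On the same counted exon lengths, the share of Rtf1 was 26.8, 27.4 and 27.2% in WT and 33.5, 29.97 and 32.0% in KO. Against the other subunits, Paf1 (-0.08), Ctr9 (-0.02) and Wdr61 (0.04) overlapped between the genotypes.

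**Figure D2:**
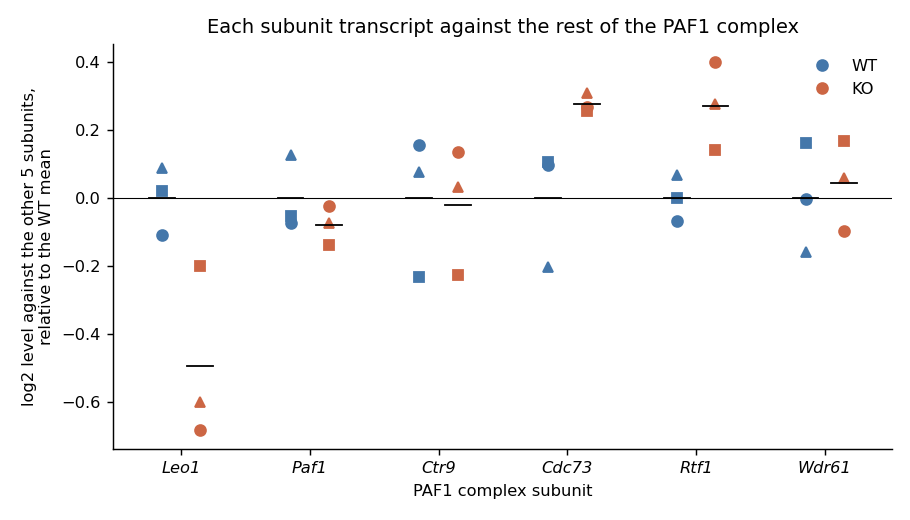
Level per kilobase of each PAF1 complex subunit against the mean of the other 5 in the same library, on a log2 scale set to 0 at the WT mean, with WT in blue, KO in red, circles, squares and triangles for replicates 1, 2 and 3, and a line at each group mean. Leo1 lies 0.49 lower in KO on average, Rtf1 and Cdc73 lie 0.27 and 0.28 higher, and the other subunits overlap.

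The other subunits differed less between the genotypes. Paf1 (chromosome 7, 28392951 to 28399388, plus strand) gives the complex its name and is the partner of LEO1. It stood at 57.3, 48.2 and 67.1 CPM in WT and 50.5, 44.9 and 49.8 CPM in KO, with 2 KO libraries above WT replicate 2. The log2 fold change was -0.25 (SE 0.15, interval -0.60 to 0.10, adjusted p = 0.585).

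Ctr9 (chromosome 7, 111028951 to 111056377, plus strand) encodes the large scaffold subunit with tetratricopeptide repeats. It was at 26.6, 17.6 and 26.5 CPM in WT and 22.5, 17.4 and 21.5 CPM in KO. In each genotype replicate 2 was the low library, and the groups overlapped. The log2 fold change was -0.20 (SE 0.19, interval -0.66 to 0.25, adjusted p = 0.712), and it was 0.08 with the alveolar type II covariate.

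Cdc73 (chromosome 1, 143598800 to 143702893, minus strand) encodes parafibromin, a tumor suppressor of the parathyroid. It was at 32.9, 27.5 and 28.9 CPM in WT and 31.2, 29.4 and 32.4 CPM in KO, so that the WT libraries spanned all KO libraries. Its log2 fold change of 0.06 (SE 0.12, interval -0.23 to 0.34, adjusted p = 0.881) turned negative without WT replicate 2 (-0.04) and under total-count scaling (-0.13).

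Rtf1 (chromosome 2, 119675068 to 119735407, plus strand) encodes the subunit through which the complex stimulates ubiquitination of histone H2B. Its level was 71.5, 61.8 and 80.7 CPM in WT and 80.2, 65.7 and 75.9 CPM in KO. The KO libraries all lay within the WT range. The log2 fold change was 0.05 (SE 0.15, interval -0.30 to 0.40, adjusted p = 0.915), with the opposite sign without WT replicate 2 (-0.08), without KO replicate 1 (-0.03), under total-count scaling (-0.11) and with length offsets (-0.04).

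Wdr61 (chromosome 9, 54714735 to 54734519, minus strand) encodes the WD-repeat subunit, related to yeast Ski8. It was at 19.8, 18.1 and 18.9 CPM in WT, the smallest spread of the 10 genes there (4.54% of the mean), and stood at 16.1, 17.8 and 17.9 CPM in KO. The KO libraries lay below the WT libraries by a gap of under 1 CPM, between KO replicate 3 and WT replicate 2. The log2 fold change was -0.13 (SE 0.12, interval -0.42 to 0.15), with an adjusted p of 0.696 (edgeR quasi-likelihood). On the opposite strand, Dnaja4 covers 33.9% of the counted Wdr61 bases, and only the strand of a read tells these genes apart.

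None of the 4 genes outside the complex separated the genotypes. Supt5 (chromosome 7, 28314891 to 28338746, minus strand) encodes the large subunit of DSIF, which holds polymerase at the promoter-proximal pause and then moves with it. It was at 93.9, 70.0 and 81.7 CPM in WT and 84.6, 83.4 and 78.9 CPM in KO, and the WT range spanned every KO library. With a log2 fold change of 0.01 (SE 0.15, interval -0.33 to 0.35, adjusted p = 0.989), it changed sign under 10 of 20 alternatives, between -0.19 and 0.19.

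Supt6 (chromosome 11, 78206746 to 78245987, minus strand) encodes SPT6, a histone chaperone that rides with elongating polymerase. It was at 99.2, 75.5 and 72.7 CPM in WT and 68.2, 69.4 and 75.3 CPM in KO. WT replicate 1 stood apart from the other 5 libraries, and KO replicate 3 lay above the lowest WT library. The log2 fold change was -0.22 (SE 0.16, interval -0.58 to 0.15, adjusted p = 0.634), and it was -0.067 without WT replicate 1 and -0.049 with the alveolar type II covariate.

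Polr2a (chromosome 11, 69733997 to 69758637, minus strand) encodes the catalytic subunit of RNA polymerase II, whose C-terminal tail carries the phosphorylation marks of elongation. Its level was 107, 77.5 and 86.0 CPM in WT and 85.7, 75.1 and 87.3 CPM in KO. WT replicate 1 was again the high library, and without it the log2 fold change went from -0.13 (SE 0.16, interval -0.50 to 0.25, adjusted p = 0.781) to 0.01.

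Med1 (chromosome 11, 98152154 to 98193293, minus strand) encodes the Mediator subunit that nuclear receptors contact. It stood at 35.3, 27.4 and 28.5 CPM in WT and 23.9, 29.4 and 27.98 CPM in KO. The groups overlapped, with WT replicate 1 highest and KO replicate 1 lowest. The log2 fold change was -0.17 (SE 0.15, interval -0.51 to 0.18, adjusted p = 0.696), and it was -0.048 without WT replicate 1 and -0.018 with the alveolar type II covariate.

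WT replicate 1 was the highest of the 6 libraries in 7 of the 10 genes and WT replicate 3 in the other 3, while WT replicate 2 was the lowest WT library in 9 of the 10. WT replicate 1 also had the highest TMM factor (1.37, where the others ran from 0.874 to 1.04) and the lowest sum of alveolar type II markers. Over the 9 genes other than Leo1, the separate 95% intervals spanned -0.66 to 0.40 on the log2 scale, or 63.5 to 132% of the WT level. This span has no joint coverage. It need not cover the spread between mice, since the libraries of a group may be technical.

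**Figure D3:**
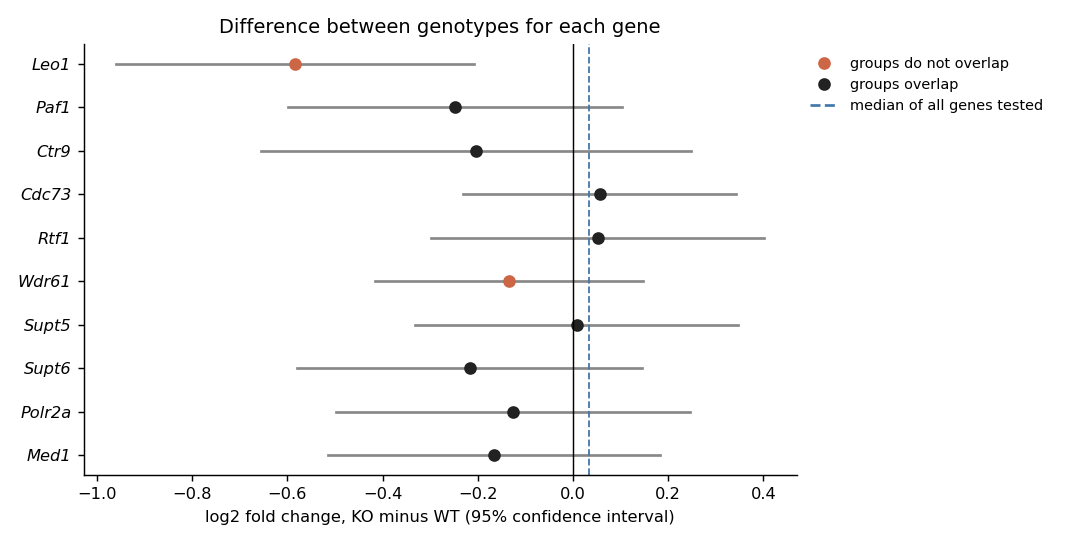
Log2 fold change (KO minus WT) of each of the 10 genes with its 95% confidence interval, red where the WT and KO libraries do not overlap, with the median of all genes tested as a dashed line. The interval of Leo1 (-0.96 to -0.21) excludes 0, the intervals of the other 9 include it, and no gene passed the adjusted threshold.

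Levels were compared between genes only per kilobase of counted exon. On that scale, in CPM per kilobase, the mean over all 6 libraries was highest for Paf1 (15.4, range 13.1 to 19.5), ahead of Supt5 (14.2, range 12.1 to 16.3), Rtf1 (12.7, range 10.8 to 14.1), Polr2a (12.2, range 10.6 to 15.2) and Supt6 (10.8, range 9.61 to 13.98). Each of these neighbours overlapped with the next over the libraries, so their order is not settled. Leo1 followed at 6.14 (range 4.43 to 8.44), below every library of Supt6 and above every library of the next gene on this length. Wdr61 (3.87, range 3.44 to 4.24), Ctr9 (3.37, range 2.65 to 4.06) and Med1 (3.28, range 2.73 to 4.03) overlapped with their neighbours, and Cdc73 (1.73, range 1.57 to 1.88) was last without overlap. The order depends on which exons are taken as the gene: Wdr61 has 4669 counted exon bases but 1290 in its principal transcript, on which its level was 14.01 CPM per kilobase (SD 0.966, n = 6), the fourth place. On principal transcripts Leo1 was in place 7 (range 4.46 to 8.48) and overlapped with the next gene, Ctr9 (range 4.04 to 6.18). Cdc73 has 17538 counted exon bases and stayed last on its principal transcript of 11586 bases (2.62, SD 0.183, n = 6).

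**Figure D4:**
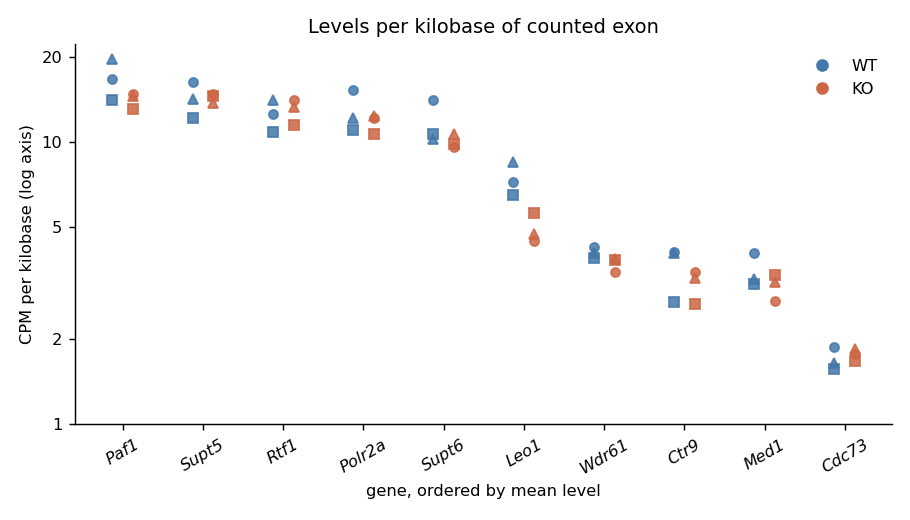
Level of each gene per kilobase of counted exon, on a log axis, in the order of the mean over the 6 libraries, with WT in blue, KO in red, and circles, squares and triangles for replicates 1, 2 and 3. Paf1, Supt5, Rtf1, Polr2a and Supt6 form an overlapping upper group between 9.61 and 19.5 CPM per kilobase, Leo1 stands between 4.43 and 8.44, and Cdc73 is last.

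The genes whose levels followed Leo1 most closely over the 6 libraries were found by Pearson's r of log2 CPM among 11627 genes. These were Tiprl (r = 0.994), Jdp2 (0.992), Ube2l3 (0.988), Cidec (0.987) and Pbk (0.987), and each had every KO library below every WT library, which the choice by likeness to Leo1 already fixes. Jdp2, a repressor of AP-1 target genes, was at 25.6, 22.3 and 29.4 CPM in WT and 14.7, 17.7 and 16.4 CPM in KO (log2 fold change -0.66, adjusted p = 0.259). Cidec, a lipid droplet protein, was at 8.91, 8.46 and 11.1 CPM in WT and 5.76, 6.55 and 5.90 CPM in KO (log2 fold change -0.64, adjusted p = 0.304). The kinase Pbk, used by dividing cells, averaged 2.92 CPM in WT and 1.43 CPM in KO, and Tiprl and Ube2l3 had log2 fold changes of -0.18 and -0.25. Among the other members, Wdr61 (r = 0.82) and Paf1 (0.72) followed Leo1 most, then Med1 (0.58), Supt6 (0.44), Ctr9 (0.42), Polr2a (0.26), Supt5 (0.09), Rtf1 (-0.09) and Cdc73 (-0.34). Of all genes compared, 95.5% had a lower r than Wdr61, 91.1% than Paf1, 84.2% than Med1, 75.7% than Supt6, 74.5% than Ctr9 and 47.2% than Rtf1. These correlations over 6 libraries share depth, scaling and cell makeup, and 2 of the 5 leading genes were among the 5 under total-count scaling.

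The wider elongation machinery was followed in 8 lists with 116 genes, of which 114 were tested. None of the 114 passed the adjusted threshold in either direction with edgeR's quasi-likelihood test, and none with DESeq2. 5 were lower and 1 was higher in KO at an unadjusted p under 0.05, which is 5.26% of them beside 10.3% of all tested genes. The genotypes did not overlap in 17 (14.9%, beside 17.8% of all tested genes), with KO below WT in 12 and above in 5. 79 of the 114 (69.3%) had a log2 fold change below 0, beside 45.9% of all tested genes. On the log2 scale 110 of the 114 lay within 0.5 of 0, and that share was not computed over all tested genes. The median of the 114 was -0.08. Their count below 0 ranged from 60 (alveolar type II covariate) to 108 (total-count scaling, which moved the median of all genes from 0.03 to -0.13).

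The genes of pausing and release included none with an adjusted p under 0.05. In the list of DSIF, NELF and SPT6 the median log2 fold change of 8 genes was -0.05, with Nelfcd, a subunit of the pausing factor NELF, highest at 0.24 (8.90 to 9.91 CPM in WT, 10.2 to 11.6 CPM in KO, adjusted p = 0.579). Among 19 genes of P-TEFb, the kinase that releases paused polymerase, and the super elongation complex, the median was -0.07. Aff1, a scaffold of that complex, was lowest among genes with a mean log2 CPM above 1, at 70.9, 54.2 and 49.7 CPM in WT and 45.6, 42.2 and 45.7 CPM in KO (log2 fold change -0.39, unadjusted p = 0.0397, adjusted p = 0.473 with edgeR). Mllt3, a reader of acylated histones, was highest among the genes above that level, at 0.28 (adjusted p = 0.548 with edgeR). Of 11 other elongation factors (median -0.11), Spty2d1 was lowest (-0.28) and Tcea3 highest (0.51, adjusted p = 0.491), the latter at 5.26 to 7.02 CPM in WT and 6.97 to 10.9 CPM in KO.

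Subunits of the polymerase and of Mediator came next. Among 13 RNA polymerase II subunits the median was -0.08, between Polr2c (-0.33, adjusted p = 0.508) and Polr2e (0.09, adjusted p = 0.845) for genes above the minimum level. Polr2k, named after its values were seen because its unadjusted p was under 0.05, had a log2 fold change of -1.16 (adjusted p = 0.478) on a mean of only 1.12 CPM in WT and 0.499 CPM in KO. Among 33 Mediator genes the median was -0.07, with Med21 lowest (-0.43, adjusted p = 0.511) and Med16 highest (0.37, adjusted p = 0.484). Med11 and Med19, chosen after their values were seen for the same reason as Polr2k, had log2 fold changes of -0.42 (adjusted p = 0.388) and -0.33 (adjusted p = 0.451).

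The histone modifiers that work with the PAF1 complex were represented by 11 genes with a median of -0.14. Rnf20, the ubiquitin ligase of histone H2B, was lowest at 64.1, 54.6 and 80.6 CPM in WT and 57.0, 51.8 and 48.0 CPM in KO, with overlap (log2 fold change -0.35, adjusted p = 0.516). The methyltransferase gene Setd1a was highest (0.06, adjusted p = 0.908). For 13 kinases, phosphatases and binding proteins of the polymerase tail the median was 0.01, between Scaf4 (-0.38, adjusted p = 0.510) and Mnat1 (0.36, adjusted p = 0.498), a partner of the kinase CDK7.

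**Figure D5:**
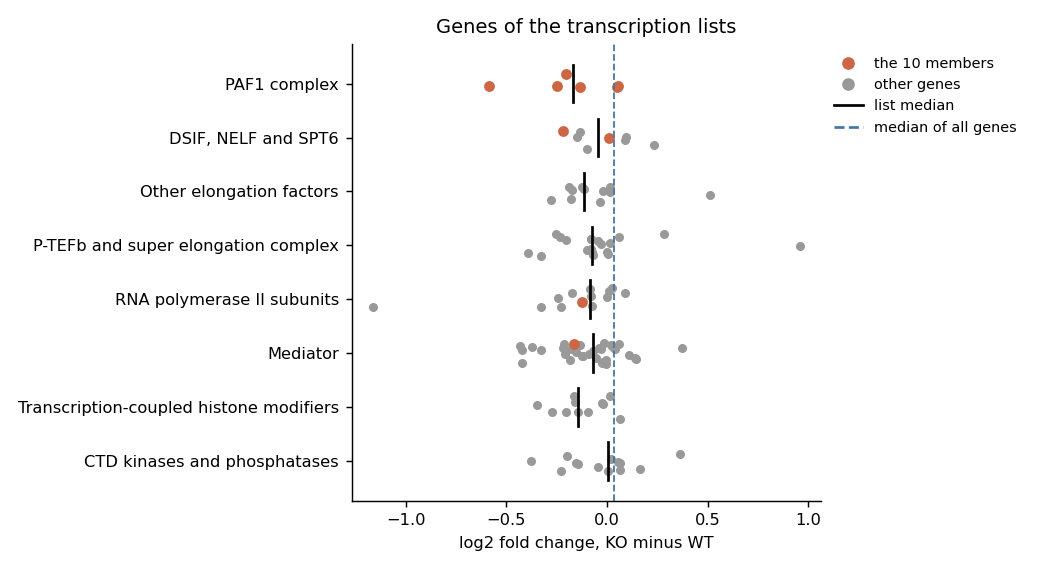
Log2 fold change (KO minus WT) of the tested genes of each transcription list, red for the 10 members and grey for the rest, with a bar at each list's median and a dashed line at the median of all genes tested. Of 114 genes, 110 lie within 0.5 of 0 (a share not computed over all tested genes), and Leo1 is the member farthest from it.

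Genes that the study ties to LEENE in ECs were set beside Leo1, since LEO1 is the protein studied with it. The study itself reports Nos3, Klf2 and Klf4 as lower in KO, by RNA-seq of lung ECs and by qPCR of the heart. It also reports that overexpressed human LEENE raised their mRNA in lung ECs and aortic rings. Nos3, the endothelial nitric oxide synthase, was at 44.3, 47.0 and 29.4 CPM in WT and 16.8, 25.2 and 21.04 CPM in KO (log2 fold change -0.94, adjusted p = 0.274). The flow-responsive factors Klf2 and Klf4 had log2 fold changes of -1.06 (adjusted p = 0.0852) and -0.996 (adjusted p = 0.0721), with no overlap between the genotypes. Kdr, the VEGF receptor that is also an endothelial marker, went the other way, at 93.3, 108 and 138 CPM in WT and 264, 161 and 195 CPM in KO (log2 fold change 0.87, adjusted p = 0.313). None of these 4 passed edgeR's quasi-likelihood fit as described above, and the calls of Nos3, Klf2 and Klf4 depended on the method. DESeq2 called Nos3 (adjusted p = 0.0240), Klf2 (8.37e-08) and Klf4 (1.82e-08), and edgeR's likelihood ratio test called the same genes (adjusted p = 0.0235, 0.000257 and 0.000282). The quasi-likelihood test called them without a filter on low counts (adjusted p = 0.0191, 0.0112 and 0.0133), and Klf2 and Klf4 with the alveolar type II covariate (0.0363 and 0.0313). Over 20 alternatives Nos3 was called in 4, Klf2 in 5 and Klf4 in 8, and Kdr and Leo1 in 0.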

How the data were processed

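Libraries of lung ECs were made with a stranded poly(A) kit and sequenced as single reads. The authors deposited whole-number read counts per gene without normalization. Per the file headers, featureCounts 2.0.0 was run on uniquely aligned reads against Ensembl release 84 of GRCm38, and the submitters' processing notes name STAR 2.5.4b. Symbols came from GENCODE, for 47224 of 47729 genes. The labels gave each library's group and number. Every pair of libraries differed by more than sampling noise.

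In R 4.3.3, edgeR 4.0.16 kept genes by filterByExpr, scaled libraries by TMM and tested genotype with glmQLFit and glmQLFTest, and p-values were adjusted by Benjamini-Hochberg over 14625 genes. The common biological coefficient of variation was 0.256. DESeq2 1.42.0, limma-voom (limma 3.58.1), other scalings, filters and options, a replicate block, an alveolar type II covariate, length offsets and each library left out were alternatives. The likeness to Leo1 used log2 CPM with a prior count of 2 and genes with a mean above 1. The tests were tried on simulated counts first. The genes, lists and tests were chosen with earlier results of these data known. Named were all 10 genes, the highest and lowest log2 fold change of each list among genes with a mean log2 CPM above 1, the 5 genes most like Leo1, and 4 LEENE targets.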

Additional observations from a re-analysis of the deposited data

How the results depend on the processing

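The counts of called genes among the 10 members and among the 114 list genes were 0 under each of the 20 alternatives, and Leo1, Paf1, Wdr61, Supt6 and Med1 had a negative log2 fold change under all of them, from -0.75 to -0.50 for Leo1, -0.41 to -0.13 for Paf1, -0.31 to -0.082 for Wdr61, -0.42 to -0.049 for Supt6 and -0.36 to -0.018 for Med1. The median of the members was -0.35 under total-count scaling, as was that of the PAF1 complex (-0.35), and with the alveolar type II covariate these were 0.029 and -0.0027. With each library left out, the median of the members ran from -0.27 (without WT replicate 2) to -0.058 (without WT replicate 1), and that of the PAF1 complex from -0.30 to -0.11 under the same omissions. Among the members, the list genes and the 4 LEENE targets, gained calls were limited to Nos3 (4 alternatives), Klf2 (5) and Klf4 (8). Calls of the 5 genes most like Leo1 and of the cell type markers were not followed over the alternatives. Of the genes most like Leo1, 2 of 5 recurred under total-count scaling. Over all genes, 16 were called, and 187 by DESeq2, 26 by limma-voom, 211 by the likelihood ratio test, 26 with RLE, 31 with upper-quartile and 123 with total-count scaling (61 higher, 62 lower), 152 without a filter, 49 with the alveolar type II covariate, 51 with length offsets, and 0 to 791 with a library left out (791 without WT replicate 2, 0 without any of the KO replicates). The replicate block called 0 genes and left Leo1 at -0.58 (adjusted p = 0.351). Same-numbered libraries correlated at -0.08, 0.22 and 0.01 in their deviations from the group means, so the numbers were not taken as pairs.

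Signs turned, with no adjusted p under 0.05, for Ctr9 (0.077) and Polr2a (0.084) with the alveolar type II covariate. Under total-count scaling Cdc73 (-0.13), Rtf1 (-0.11), Supt5 (-0.19), Polr2e (-0.11) and Setd1a (-0.13) turned, and with length offsets Rtf1 (-0.039), Supt5 (-0.087), Polr2e (-0.067) and Setd1a (-0.025). Supt5 also turned with DESeq2 (-0.025), RLE (-0.020), upper-quartile scaling (-0.028) and without mitochondrial genes (-0.016). With each library left out in turn, values ran from -0.037 to 0.13 for Cdc73, -0.079 to 0.13 for Rtf1, -0.13 to 0.11 for Supt5, -0.26 to 0.012 for Polr2a, -0.026 to 0.21 for Polr2e and -0.099 to 0.19 for Setd1a. The cause was not tested. With 3 libraries a group, the smallest p of any exact permutation test here is 0.10.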
